A study of Mus musculus with 50 samples.

Results

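The complement genes described here are 35 components, regulators and receptors of the complement system, taken as the rows of the gene count tables that carry their symbols. All 35 were found among the 24984 genes counted in each RNA-seq library. By role they fall into 7 genes of the classical pathway (C1qa, C1qb, C1qc, C1ra, C1s1, C2 and C4b), 5 of the lectin pathway (Masp1, Masp2, Mbl1, Mbl2 and Fcna), 4 of the alternative pathway together with C3 (C3, Cfb, Cfd and Cfp), 7 of the terminal pathway (Hc, C6, C7, C8a, C8b, C8g and C9), 6 regulators (Cfi, C4bp, Cd55, Cd59a, Cr1l and Serping1) and 6 receptors (C3ar1, C5ar1, C5ar2, Vsig4, Itgam and Itgax).

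RNA-seq was performed on kidney and liver of untreated C57BL/6 mice, with 4 young (2.5 months) and 4 old (23 to 25 months) libraries per tissue, to ask what changes with age. It was also performed on kidney and liver of C57BL/6 mice of 20 to 21 months that received DMSO or 3C, with 4 libraries per tissue and treatment, and on C57BL/6 skin fibroblasts whose label carries P9 before the word mice, given DMSO or 3C, with 3 libraries each. What 3C is, its dose and duration, and what P9 stands for were not given in the sources used here. ATAC-seq, which maps open chromatin, was performed on kidney and liver of the young and old mice with 3 libraries per tissue and age. The untreated mice were female, and the labels name no transgene or deletion in any group. The labels number the replicates without saying whether each came from its own animal or culture, so p values measure the spread between these libraries.

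Complement is a cascade of plasma proteases and binding proteins that tags and lyses targets. C1q bound to antibody starts the classical pathway, mannose-binding lectins and ficolins start the lectin pathway, and spontaneous turnover of C3 feeds the alternative pathway, after which cleaved C3 and C5 release anaphylatoxins and the terminal components form a pore in the membrane. Hepatocytes secrete most of the plasma components, whereas C1q is made mainly by macrophages and other myeloid cells and factor D by adipocytes, and host cells carry regulators that stop the cascade on their own surface.

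Total gene counts ranged from 14238228 to 43704147 per RNA-seq library, and levels are given as CPM, which scales every library to the same total. The labelled tissues were checked against marker genes. The summed level of 10 hepatocyte markers was 100090 to 199840 CPM in the 16 livers, that of 8 kidney tubule markers was 14723 to 19860 CPM in the 16 kidneys, and that of 7 fibroblast markers was 17015 to 23456 CPM in the 6 fibroblast libraries. Old kidney replicate 2 stood apart. It held the 10 hepatocyte markers at a median of 2.57% of their mean level in old liver, against 0.107% or less of the untreated or DMSO liver level in the other 15 kidney libraries, and its tubule markers summed to 16794 CPM. The calls between old and young kidney are therefore given with and without it, as are the fold changes of some genes.

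RefSeq promoter sequence (GRCm38.p6) was at hand for 28 of the 35 genes. The 250 bases upstream of the start site are printed for Itgam, which had an ATAC-seq peak near its start site in every old and no young library of both tissues, for C3ar1, which had such a peak in 2 of 3 old kidneys and no young kidney, for C1qb, which had a peak in all 12 libraries, and for C3, which was the most abundant member in liver and had no peak in any kidney. C1qa, Cfp and Itgax shared the kidney pattern of C3ar1. Each printed stretch is written 5′ to 3′ on the strand of the gene, and capitals mark letters that match one of 4 motifs. The regions are chr7:128062390-128062639 on the plus strand, chr6:122856158-122856407 on the minus strand, chr4:136886201-136886450 on the minus strand and chr17:57228137-57228386 on the minus strand.
Itgam: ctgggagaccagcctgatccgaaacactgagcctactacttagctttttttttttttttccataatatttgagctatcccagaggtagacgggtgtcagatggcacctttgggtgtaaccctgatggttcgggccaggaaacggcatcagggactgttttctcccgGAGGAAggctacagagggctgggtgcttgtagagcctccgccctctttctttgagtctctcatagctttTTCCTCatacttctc
C3ar1: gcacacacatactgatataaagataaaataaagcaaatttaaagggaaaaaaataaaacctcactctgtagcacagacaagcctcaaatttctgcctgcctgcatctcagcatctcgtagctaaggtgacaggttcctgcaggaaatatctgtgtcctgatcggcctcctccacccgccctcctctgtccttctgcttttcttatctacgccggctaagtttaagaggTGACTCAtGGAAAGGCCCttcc
C1qb: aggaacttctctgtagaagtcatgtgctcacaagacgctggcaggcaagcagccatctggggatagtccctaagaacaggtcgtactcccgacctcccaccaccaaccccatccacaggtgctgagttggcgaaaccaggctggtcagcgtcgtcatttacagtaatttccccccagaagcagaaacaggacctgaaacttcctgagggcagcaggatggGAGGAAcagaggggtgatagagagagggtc
C3: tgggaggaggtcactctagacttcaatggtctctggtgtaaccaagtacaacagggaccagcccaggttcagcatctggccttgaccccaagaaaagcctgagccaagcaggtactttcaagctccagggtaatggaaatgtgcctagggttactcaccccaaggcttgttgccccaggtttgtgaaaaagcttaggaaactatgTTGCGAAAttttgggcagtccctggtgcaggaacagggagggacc

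The motifs searched, on both strands, were AP-1 (TGANTCA), ETS (GAGGAA), C/EBP (TTGCNNAA) and NF-kB, and none of these letter patterns contains another. In the Itgam promoter the capitals are ETS matches starting 84 and 15 bases upstream of the start site. In that of C3ar1 they are an AP-1 match starting 22 bases upstream, next to an NF-kB match starting 14 bases upstream. The C1qb promoter held an ETS match 30 bases upstream and the C3 promoter a C/EBP match 45 bases upstream. Across the 28 promoters the AP-1 letters were present in 3 (C8g, C3ar1 and Itgax), or 10.7%, against 7.82% of 27025 promoters in the table. The ETS letters were present in 7 (C1qb, C1qc, Fcna, Cd59a, C5ar2, Vsig4 and Itgam), or 25.0%, against 25.9%, the C/EBP letters in 4 (C1s1, C3, C9 and C5ar2), or 14.3%, against 10.8%, and the NF-kB letters in 1 (C3ar1), or 3.57%, against 1.65%. A match describes the sequence and is not a binding site.

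The liver held most of the complement transcripts. The 35 genes summed to 20010.0 ± 1781 CPM in young liver (mean ± SD, n = 4) and to 1246 ± 115 CPM in young kidney (n = 4), 1193 ± 175 CPM in fibroblasts with DMSO (n = 3), 22667 ± 1663 CPM in liver with DMSO (n = 4) and 1613 ± 71.4 CPM in kidney with DMSO (n = 4). By plain CPM, 25 genes reached their highest group mean in a liver group, 8 in a kidney group and 2 (Masp1 and Cd55) in a fibroblast group. With TMM factors over all RNA libraries these numbers were 29, 4 and 2, so the split between liver and kidney depends on the scaling for genes of like level in both.

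**Figure D1:**
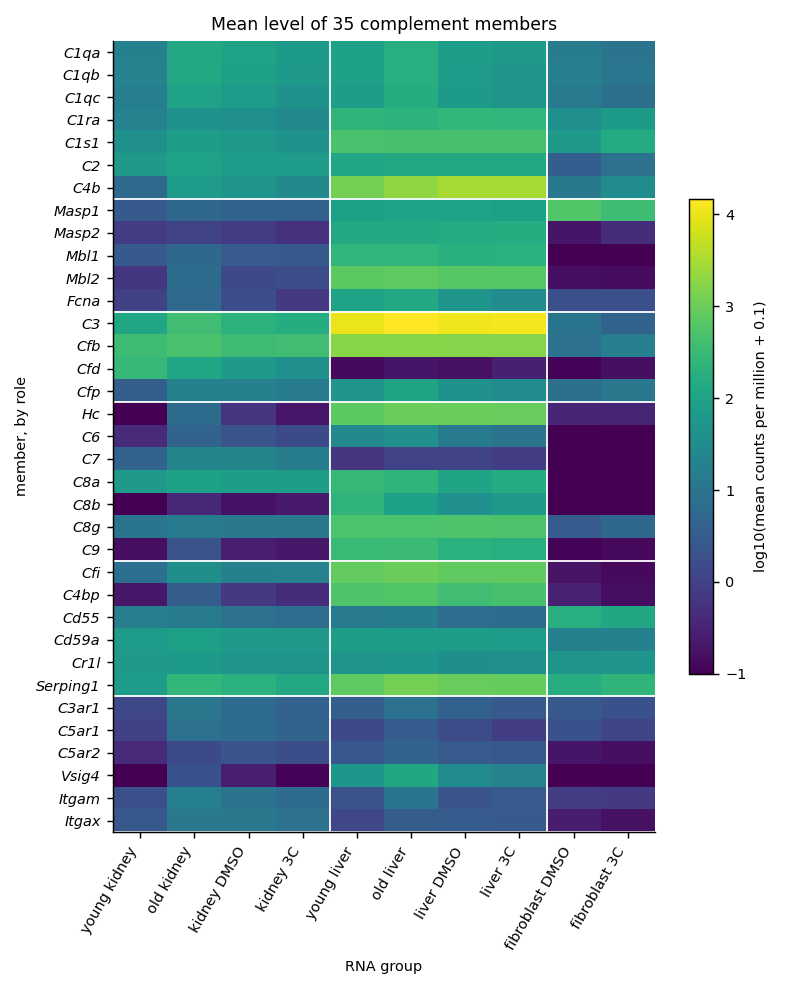
Mean level of each of the 35 complement genes (rows, by role) in the 10 RNA groups (columns, n = 3 or 4 libraries), as log10 of mean CPM plus 0.1. C3, Cfb, C4b, Mbl2 and Serping1 are brightest in the 4 liver groups, Cfd and C7 are brighter in kidney than in liver, and Masp1 and Cd55 are brightest in fibroblasts.

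The order of the genes differed between the tissues when levels were compared per kb of exon. In liver C3, on which all pathways converge, led with 1979 CPM per kb in young liver, followed by the lectin Mbl2 (673) and the alternative pathway protease Cfb (615), which differed by less than the SD of Mbl2. In young kidney the adipocyte protease Cfd (factor D, 305 CPM per kb) and Cfb (127) led, and in old kidney Cfb (168) and C1qa (128). In fibroblasts with DMSO the C1 inhibitor Serping1 (71.4 CPM per kb), the lectin pathway protease Masp1 (60.2) and the membrane regulator Cd55 (35.6) led. No read of C6, C7, C8a, C8b, Mbl1 or Vsig4 was found in the 6 fibroblast libraries, which allows up to 0.0473 CPM over the 3 DMSO libraries and 0.0553 CPM over the 3 with 3C (3 counts, counting error only).

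The genes that led each role in liver were followed across all livers. C3 had 10510.0, 10888, 11349 and 7966 CPM in young liver, 10761, 12968, 10484 and 11751 CPM with DMSO and 12560.0, 18009, 8469.5 and 10787 CPM with 3C. C4b, the classical pathway component that joins C2 in the C3 convertase, had 1387, 1228, 1289 and 926 CPM in young liver, 1384, 1785, 3079 and 2053 CPM in old liver, 2669.5, 3580.5, 3260.0 and 2776 CPM with DMSO and 3564, 3316, 2113 and 2853 CPM with 3C. Mbl2 had 719, 639.7, 614 and 959.8 CPM in young liver, 1292, 654, 551 and 612 CPM in old liver, 733, 678, 703 and 543 CPM with DMSO and 679, 535, 675 and 664 CPM with 3C. These ranges overlapped between the untreated ages and between the treatments for all 3 genes. The terminal component C8g had 485, 435, 429 and 646 CPM in young liver, 804, 516, 301 and 419 CPM in old liver, 573, 522, 654 and 506 CPM with DMSO and 481, 508, 573 and 555 CPM with 3C, and Serping1 had 763, 724, 856 and 755 CPM in young, 1402, 813, 1633 and 982 CPM in old, 810.2, 978, 969 and 909.5 CPM in DMSO and 1035, 1201, 629 and 731 CPM in 3C livers. C8a and C8b, whose products join in the pore complex, varied widely, from 29.6 to 625 CPM and from 10.6 to 311 CPM over the 16 livers.

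To compare the tissues, young liver was set against young kidney in edgeR, with a call made where the Benjamini-Hochberg adjusted p, taken over all genes tested, was under 0.05 and the fold was above 2 or below 0.5. Of the 35 genes 30 were called higher in liver and 2 (Cfd and C7) lower, where 16.9% and 25.7% of 14057 genes were. Cd55, Cr1l and Itgax were not called. The median log2 fold change was 4.66, also with genes absent from kidney at their bound, against -0.08 for all genes. Hc, which encodes C5, C8b and Vsig4, the receptor for C3 fragments on liver macrophages, had no read in the 4 young kidneys, so that liver was at least 17634-fold, 5504-fold and 1334-fold higher (floor of 3 counts over the group). In the other direction Cfd was at 273, 227, 421 and 202 CPM in young kidney and at 0 to 0.0901 CPM in young liver (log2 fold change -11.76 ± 0.46 SE, edgeR adjusted p = 5.98e-10, and -12.79 without young liver replicate 4), and C7 was at 3.497, 5.94, 5.41 and 2.40 and 0.0453, 1.05, 0.483 and 0.451 CPM (log2 fold change -1.99 ± 0.55 SE, edgeR adjusted p = 0.00725).

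Between the DMSO libraries of the mice of 20 to 21 months, 24 genes were called higher in liver and 4 (Cfd, C7, C5ar1 and Itgam) lower, where 15.7% and 26.6% of 14981 genes were. Without the fourth DMSO liver the lower calls were 2 (Cfd and C7). C1qa illustrates how the young and the DMSO pair differed. It had 21.0, 14.6, 17.98 and 21.4 CPM in young kidney and 87.7, 80.6, 71.9 and 121 CPM in young liver (edgeR log2 fold change 3.37 ± 0.23 SE, edgeR adjusted p = 1e-07), and 85.1, 103, 107 and 97.3 CPM in DMSO kidney and 129, 82.9, 60.03 and 50.4 CPM in DMSO liver (log2 fold change 0.69 ± 0.21 SE, edgeR adjusted p = 0.0116). The first pair of ranges did not overlap and the second did, and by plain CPM the mean in DMSO kidney was the higher, so the direction of the second depends on the scaling. Library totals in place of TMM moved the median of all genes to -1.16 in the young and -1.05 in the DMSO comparison, with 26 and 20 members called higher and 3 and 5 lower. The numbers of the replicates were taken as pairs for the young tissues, which the labels do not state. With that block the calls were 30 and 2 again.

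Complement transcripts were higher in old than in young kidney across most roles. Of the 29 genes with enough reads to test, 16 were called higher in old kidney and 0 lower, where 5.68% of 14495 genes were called higher and 0.407% lower. The 0 lower calls compare with 1 (Cfd) at an unadjusted p under 0.05 in edgeR (13.6% of all genes) and 0 calls in DESeq2. Hc, C8b, C9, C4bp, Masp2 and Vsig4 had too few reads to be tested. The median log2 fold change of the 29 was 1.93, against 0.02 over all genes, and 27 were above 0. Values of young and old kidneys did not overlap, old above young, for 20 of the 29, where 13.5% of all genes had that pattern. Without old kidney replicate 2 the same 16 genes were called (background 5.9%), with a median of 1.81. Of the 16, 11 were called in all 14 alternatives. C1ra was lost without old kidney replicate 4, C7 without young replicate 1, Itgax without young replicate 2 or old replicate 4, and C3 without young replicate 1 or 2 or old replicate 4, and C3 and Itgam with the replicate number as a block. In bulk tissue more cells of a type and more RNA per cell cannot be told apart.

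**Figure D2:**
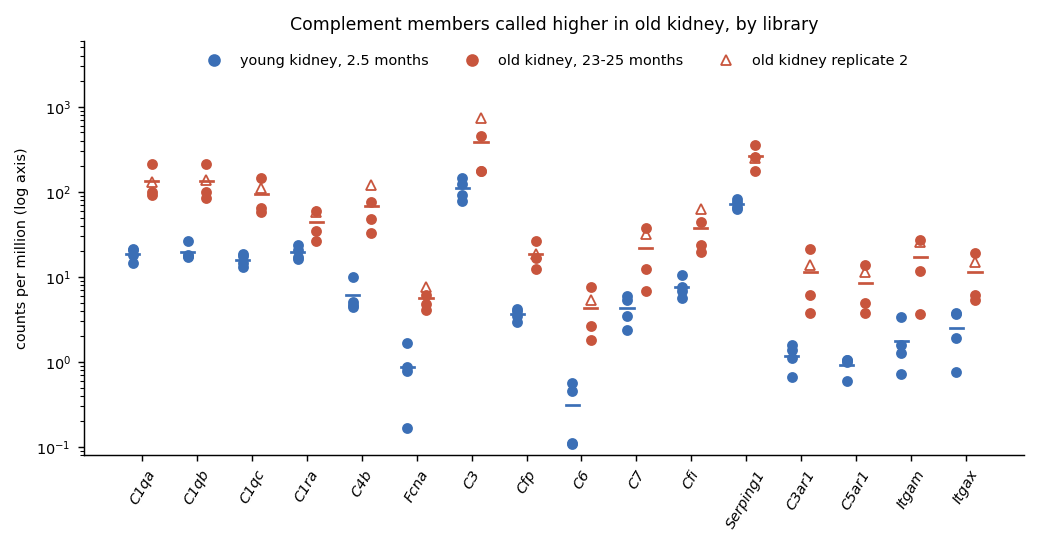
CPM on a log axis for the 16 complement genes called higher in old kidney, by library (4 young in blue, 4 old in red), with horizontal bars at the group means. Old kidney replicate 2, which carries liver transcripts, is the open triangle. In each of the 16 genes the lowest old kidney lies above the highest young kidney.

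Among the classical pathway genes all 3 subunits of C1q, the recognition molecule, rose together. C1qa had 21.0, 14.6, 17.98 and 21.4 CPM in the young and 92.9, 130.3, 98.5 and 212 CPM in the old kidneys (log2 fold change 2.78 ± 0.25 SE, edgeR adjusted p = 0.000446). C1qb had 17.3, 17.9, 17.8 and 26.6 CPM in young and 83.9, 137, 101 and 212 CPM in old kidneys (log2 fold change 2.69 ± 0.28 SE, edgeR adjusted p = 0.000817), and C1qc had 18.6, 14.4, 13.2 and 17.7 and 57.9, 110.0, 65.3 and 147 CPM (log2 fold change 2.52 ± 0.27 SE, edgeR adjusted p = 0.000921). That is 6.87-fold, 6.44-fold and 5.72-fold, with old kidney replicate 4 the highest for each subunit and replicate 2 within the range of the others. C4b had 4.48, 5.12, 10.1 and 4.70 CPM in young and 47.9, 119, 32.9 and 75.3 CPM in old kidneys (log2 fold change 3.45 ± 0.40 SE, edgeR adjusted p = 0.00114), and 3.09 on the log2 scale without old kidney replicate 2, which was its highest library. Because the neighbouring C4a is nearly identical in sequence, reads of these 2 genes may have been split or dropped in counting. The C1 protease C1ra had 23.6, 21.0, 16.1 and 17.3 CPM in young and 26.2, 57.5, 34.4 and 59.3 CPM in old kidneys (log2 fold change 1.14 ± 0.23 SE, edgeR adjusted p = 0.0111). Its partner C1s1 (log2 fold change 0.85 ± 0.24 SE, edgeR adjusted p = 0.0477) and C2 (log2 fold change 0.63 ± 0.12 SE, edgeR adjusted p = 0.0104) passed the adjusted p but stayed under 2-fold.

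The lectin pathway held 1 call among 4 genes tested. The ficolin Fcna had 0.874, 0.777, 1.69 and 0.168 CPM in young and 6.11, 7.52, 4.78 and 4.10 CPM in old kidneys (log2 fold change 2.68 ± 0.49 SE, edgeR adjusted p = 0.00729), without overlap. Without old kidney replicate 2, its highest library, the log2 fold change was 2.55. Mbl2 had 0.492, 0.274, 0.421 and 1.06 CPM in young and 1.63, 20.6, 3.53 and 0.778 CPM in old kidneys, with old kidney replicate 2 far above the rest, and its difference (log2 fold change 3.46 ± 0.999 SE, edgeR adjusted p = 0.0516) was smaller, 1.81 ± 0.64, without that library (edgeR adjusted p = 0.0647). Mbl1 (log2 fold change 0.86 ± 0.26 SE, edgeR adjusted p = 0.0567) and Masp1 (log2 fold change 0.95 ± 0.53 SE, edgeR adjusted p = 0.251) were not called. The log2 fold change of Masp1 was 0.47 without old kidney replicate 2.

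Among C3 and the alternative pathway genes, C3 and Cfp were called. C3 had 92.0, 124, 147 and 79.2 CPM in young and 176, 732, 177 and 459 CPM in old kidneys (log2 fold change 1.74 ± 0.41 SE, edgeR adjusted p = 0.0254), and 1.26 ± 0.31 without old kidney replicate 2, its highest library (edgeR adjusted p = 0.0200). Properdin (Cfp), which stabilises the alternative convertase, had 4.15, 4.02, 3.44 and 2.96 CPM in young and 16.9, 18.4, 12.5 and 26.6 CPM in old kidneys (log2 fold change 2.31 ± 0.22 SE, edgeR adjusted p = 0.000547). Both genes were higher in every old than in any young kidney. Cfb, the most abundant gene of this role over the 4 kidney groups, had 353, 331, 366 and 381 CPM in young, 446, 494, 478 and 479 CPM in old, 369, 375, 354 and 326 CPM in DMSO and 377, 395, 371 and 376 CPM in 3C kidneys, not overlapping between the ages but under 2-fold (log2 fold change 0.37 ± 0.11 SE, edgeR adjusted p = 0.0526). Cfd was the only gene with a log2 fold change below -1. It had 273, 227, 421 and 202 CPM in young and 85.7, 55.2, 255 and 49.5 CPM in old kidneys (log2 fold change -1.31 ± 0.52 SE, edgeR adjusted p = 0.130), with old kidney replicate 3 among the young values. The adipocyte marker Adipoq varied in the same libraries, with 34.6, 30.0, 60.05 and 34.9 CPM in young and 17.3, 11.4, 43.9 and 11.6 CPM in old kidneys. Lep, of the same list, leaned the other way, at 0.219 to 0.895 CPM in young and 0.641 to 5.45 CPM in old kidneys, with overlap. The sum of the 6 adipocyte markers was 376, 265, 500.3 and 261 CPM in young and 242, 145, 615 and 156 CPM in old. Fabp4 made up most of that sum, at 164 to 324 CPM in young and 106 to 466 CPM in old kidneys. The part of adipocytes in the Cfd values was not tested.

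Of the terminal pathway, C6 and C7 rose. C6 had 0.109, 0.457, 0.562 and 0.112 CPM in young and 2.66, 5.29, 1.83 and 7.69 CPM in old kidneys (log2 fold change 3.77 ± 0.60 SE, edgeR adjusted p = 0.00419), and C7 had 3.497, 5.94, 5.41 and 2.40 and 12.4, 31.7, 6.79 and 37.8 CPM (log2 fold change 2.30 ± 0.49 SE, edgeR adjusted p = 0.0154). C6 stayed under 1 CPM in every young kidney. C8a, the most abundant terminal gene in kidney, had 46.9, 60.6, 71.0 and 62.0 CPM in young, 118, 88.0, 67.6 and 94.5 CPM in old, 81.5, 67.3, 79.8 and 79.4 CPM in DMSO and 86.7, 84.5, 72.3 and 78.4 CPM in 3C kidneys and overlapped between the ages (log2 fold change 0.58 ± 0.19 SE, edgeR adjusted p = 0.0735), as did C8g (log2 fold change 0.32 ± 0.25 SE, edgeR adjusted p = 0.406).

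Among the regulators the 2 secreted ones tested rose, and the membrane regulators differed by less than 2-fold. Serping1, the C1 inhibitor, had 75.3, 65.7, 62.4 and 81.8 CPM in young and 178, 251, 257 and 359 CPM in old kidneys (log2 fold change 1.83 ± 0.19 SE, edgeR adjusted p = 0.000906). Factor I (Cfi), the protease that degrades C3b and C4b, had 6.83, 7.54, 10.6 and 5.59 and 19.7, 63.1, 24.0 and 44.5 CPM (log2 fold change 2.25 ± 0.34 SE, edgeR adjusted p = 0.00308). Without old kidney replicate 2, its highest library, the log2 fold change of Cfi was 1.93. The values of Serping1 and Cfi were free of overlap. The decay-accelerating factor Cd55 (log2 fold change -0.33 ± 0.16 SE, edgeR adjusted p = 0.194), the pore inhibitor Cd59a (log2 fold change 0.24 ± 0.11 SE, edgeR adjusted p = 0.171) and Cr1l, the mouse Crry gene (log2 fold change 0.12 ± 0.09 SE, edgeR adjusted p = 0.354), were not called. Cd59a (64.5 to 79.6 CPM in young, 81.6 to 90.7 CPM in old) and Cr1l (58.0 to 62.6 and 63.4 to 68.9 CPM) did not overlap either. Of all genes 13.5% had that pattern.

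Receptors showed the highest median of the roles, at 3.13 on the log2 scale over 5 genes tested, of which 4 were called. The C3a receptor C3ar1 had 1.37, 1.60, 1.12 and 0.671 CPM in young and 6.16, 13.8, 3.797 and 21.4 CPM in old kidneys (log2 fold change 3.18 ± 0.51 SE, edgeR adjusted p = 0.00415). The C5a receptor C5ar1, which had the highest mean per kb of the receptors over the 4 kidney groups (Itgax was higher in young and 3C and Itgam in old kidney), had 0.601, 1.01, 1.05 and 1.06 CPM in young, 4.92, 11.6, 3.75 and 13.8 CPM in old, 5.06, 6.69, 6.67 and 7.11 CPM in DMSO and 3.42, 6.43, 3.40 and 4.36 CPM in 3C kidneys (old against young, log2 fold change 3.13 ± 0.43 SE, edgeR adjusted p = 0.00216). The integrin chains of complement receptors 3 and 4, Itgam and Itgax, were also higher in each old kidney than in any young one. Itgam had 1.58, 0.731, 3.37 and 1.29 CPM in young and 11.6, 25.5, 3.71 and 26.9 CPM in old kidneys (log2 fold change 3.24 ± 0.62 SE, edgeR adjusted p = 0.00932), and Itgax had 3.77, 3.70, 0.773 and 1.90 and 5.32, 15.0, 6.07 and 19.3 CPM (log2 fold change 2.10 ± 0.51 SE, edgeR adjusted p = 0.0259). For Itgam, old kidney replicate 3 lay only just above young replicate 3. C5ar2 was not called (log2 fold change 1.93 ± 0.75 SE, edgeR adjusted p = 0.123), and Vsig4 was absent from young kidneys and at 1.58, 5.70, 0.179 and 0.0458 CPM in old kidneys, too low to be tested.

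Markers of immune cells moved with these genes. All 7 macrophage markers tested of a list of 10 were called higher in old kidney, and the list summed to 122, 109, 114 and 113 CPM in young and 489, 647, 435 and 1075 CPM in old kidneys, with Clec4f at 0 in every young kidney and at 0, 10.04, 0.0447 and 0 CPM in the old ones, where replicate 2 is the library with hepatocyte markers. Old kidney replicate 4 was highest in this sum and in C1qa, C1qb, C1qc, C3ar1, C5ar1, Itgam and Itgax. Neutrophil markers (6, of which 3 were tested and called) summed to 0.765, 1.55, 2.32 and 1.51 CPM in young and 14.8, 8.80, 6.70 and 30.4 CPM in old kidneys, and dendritic cell markers (5, of which 4 were called) to 7.21, 8.46, 5.55 and 6.93 and 11.4, 21.4, 15.5 and 15.6 CPM. Of the B and plasma cell markers 6 of 6 were called higher and of the T cell markers 4 of 5, whereas 0 of 5 endothelial and 0 of 8 tubule markers were called. Of 7 fibroblast markers 2 (Thy1 and Lum) were called higher, and the list summed to 412, 386, 343 and 354 CPM in young and 321, 684, 389 and 802 CPM in old kidneys, with overlap. The part of these cells in the complement values was not tested.

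Old kidney replicate 2 was the highest old kidney for 16 of the 35 genes, of which 4 (C4b, Fcna, C3 and Cfi) were among the 16 called. The genes with few or no reads in the other old kidneys stood out in that library. Hc was at 26.3 CPM, or 2.62% of its mean in old liver, with no read in the other 7 untreated kidneys. Mbl2 was at 20.6 CPM (2.65% of old liver), C4bp at 12.4 CPM (2.14%), C9 at 7.40 CPM (2.18%), Masp2 at 3.22 CPM (2.42%) and C8b at 1.12 CPM (1.24%). The 10 hepatocyte markers ranged from 1.43% to 3.72% in the same library, a range that holds these shares except that of C8b. For C1qa (75.3% of old liver), C1qb (79.9%), C2 (72.5%) and Serping1 (20.8%) the same library lay above that range, and its levels were within those of old kidney replicates 1, 3 and 4. Of the exon bases of Masp2, 54.9% lie opposite exons of Tardbp, and reads were counted without regard to strand, so reads of the 2 genes cannot be told apart there.

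**Figure D3:**
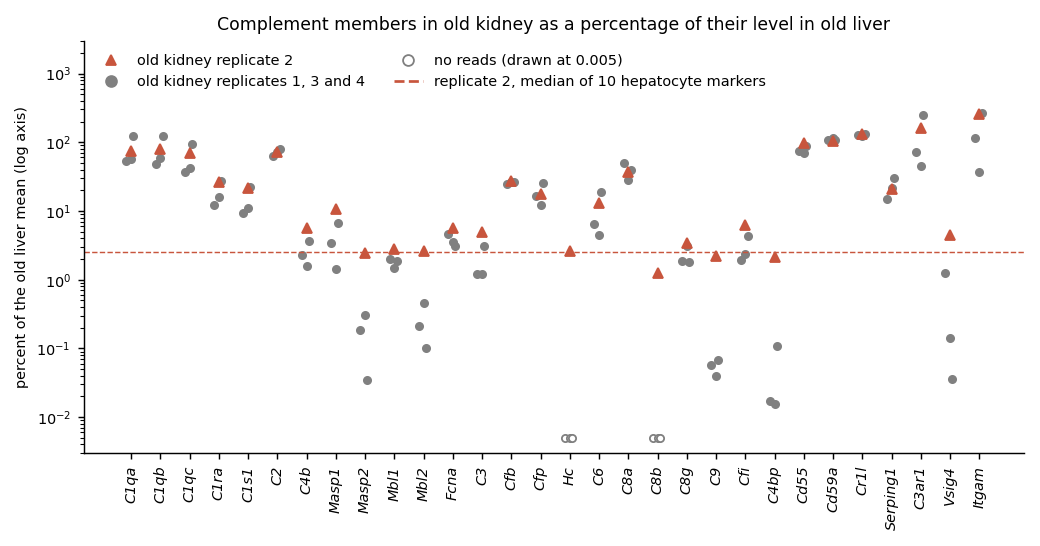
Level of 30 complement genes in the 4 old kidneys as a percentage of the mean level in old liver, on a log axis, for genes with at least 5 CPM in old liver. The triangle is old kidney replicate 2, grey points are the other 3, open points have no reads, and the dashed line is the 2.57% median of 10 hepatocyte markers in replicate 2. Hc, Mbl2, Masp2, C9 and C4bp of replicate 2 sit near the line and far above the other kidneys, whereas C1qa, C1qb and Serping1 do not.

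In liver the 3 genes called with age were receptors. Of 34 genes tested, 3 were called higher in old liver and 0 lower, where 1.69% of 12537 genes were called higher and 0.439% lower. The 0 lower calls compare with 1 (C8b) at an unadjusted p under 0.05 in edgeR (4.74% of all genes) and with 1 call (C8b) in DESeq2. C8b had 176, 246, 311 and 181 CPM in young and 33.7, 40.0, 186 and 98.6 CPM in old livers, with overlap (log2 fold change -1.44). The median log2 fold change was 0.31 against 0.00 over all genes, with 26 genes above 0, and Cfd had too few reads to be tested. Itgam had 1.99, 2.85, 1.74 and 1.31 CPM in young and 4.51, 9.67, 20.6 and 5.11 CPM in old livers (log2 fold change 2.27 ± 0.45 SE, edgeR adjusted p = 0.0288). C3ar1 had 4.03, 3.64, 3.43 and 3.06 and 6.91, 10.4, 10.1 and 6.48 CPM (log2 fold change 1.19 ± 0.22 SE, edgeR adjusted p = 0.0220), and Vsig4 had 64.1, 51.7, 46.6 and 59.0 and 95.9, 169.8, 149 and 89.6 CPM (log2 fold change 1.11 ± 0.22 SE, edgeR adjusted p = 0.0285). Without old replicate 3, its highest library, the log2 fold change of Itgam was 1.63. The values of the 2 ages did not overlap for these 3 genes, old above young, a pattern found for 6.72% of all genes. However, all 3 calls were lost when young replicate 1, 2 or 3 or old replicate 2 was left out. C3ar1 and Itgam were lost without young replicate 4, and C3ar1 and Vsig4 without old replicate 3 or with the replicate number as a block. Without old replicate 4 there were 6 calls, with C1qb, C1qc and Cfp added, and without old replicate 1 there were 5, with C5ar1 and Itgax added, as in DESeq2.

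The C1q subunits and C3 were not called in old liver. C1qa had 87.7, 80.6, 71.9 and 121 CPM in young and 188, 177, 222 and 105 CPM in old livers (log2 fold change 0.88 ± 0.30 SE, edgeR adjusted p = 0.167), C1qb had 99.4, 81.7, 72.8 and 109 and 186, 189.8, 207 and 105 CPM (log2 fold change 0.87 ± 0.27 SE, edgeR adjusted p = 0.134) and C1qc had 93.0, 70.8, 64.7 and 94.3 and 149, 179.7, 192 and 105 CPM (log2 fold change 0.89 ± 0.25 SE, edgeR adjusted p = 0.0914). Old liver replicate 4 was the lowest old liver for each C1q subunit. C3 had 9252, 13237, 23795 and 12723 CPM in old liver, with old replicate 3 above all other livers, and was not called (log2 fold change 0.47 ± 0.30 SE, edgeR adjusted p = 0.573). C5ar1 (log2 fold change 1.21 ± 0.31 SE, edgeR adjusted p = 0.0730), Itgax (log2 fold change 1.42 ± 0.41 SE, edgeR adjusted p = 0.107) and Cfp (log2 fold change 0.96 ± 0.24 SE, edgeR adjusted p = 0.0710) had log2 fold changes near or above 1 without being called. Macrophage markers summed to 744, 713, 569 and 794 CPM in young and 1155, 2010.1, 1949 and 1047 CPM in old livers, and neutrophil markers to 2.85, 2.85, 4.35 and 4.64 and 70.0, 21.3, 117 and 14.4 CPM, both without overlap, while 4 of 10 and 5 of 5 tested were called higher. Their part in the receptor values was not tested.

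**Figure D4:**
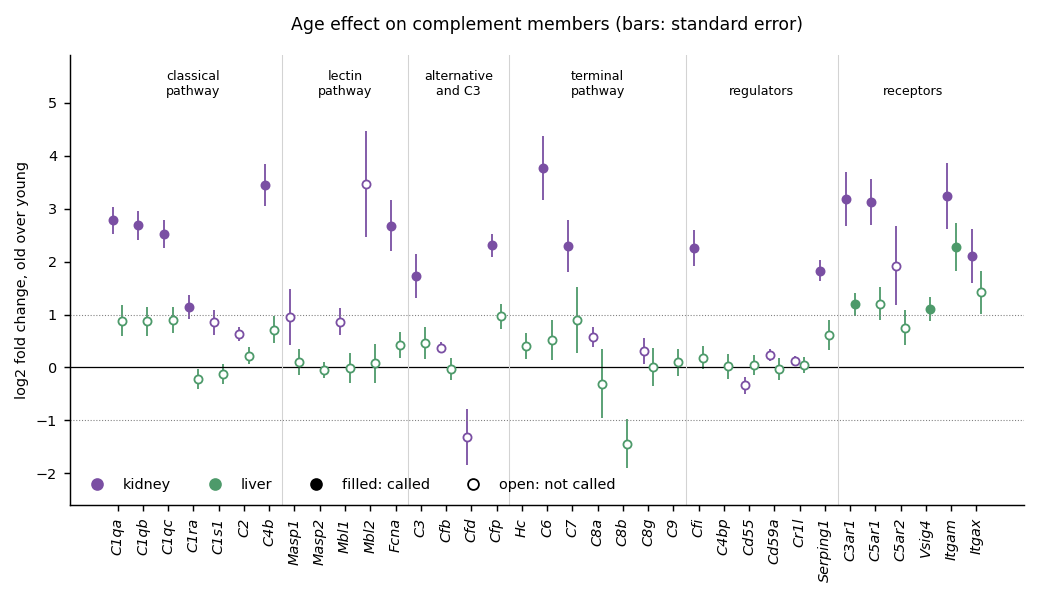
Log2 fold change of old over young for each complement gene in kidney (purple, n = 4 against 4) and liver (green, n = 4 against 4), with bars of 1 standard error. Filled points were called and dotted lines mark 2-fold. Kidney points lie above the liver points for the classical pathway genes, Fcna, Cfp, C6, Cfi and the 5 receptors tested in kidney, and Cfd is the lowest of the kidney points.

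The age effects of liver and kidney were compared through an interaction term, with the 16 untreated libraries in 1 edgeR model of 15036 genes. For 9 of the 35 genes the effect was lower in liver than in kidney at an adjusted p under 0.05, and for 0 it was higher (0 also in DESeq2 and none at an unadjusted p under 0.05), where 0.845% of all genes were lower and 0.871% higher. The difference of the log2 fold changes (liver minus kidney, ± SE, then edgeR adjusted p) was -3.20 ± 0.74, 0.0392 for C6, -2.66 ± 0.49, 0.0127 for C4b, -2.21 ± 0.49, 0.0325 for Fcna and -2.004 ± 0.41, 0.0208 for Cfi. For C1qa it was -1.85 ± 0.40, 0.0283, for C1qb -1.77 ± 0.39, 0.0310 and for C1qc -1.57 ± 0.36, 0.0360 (same edgeR test), and for C1ra -1.31 ± 0.29, 0.0325 and Cfp -1.30 ± 0.32, 0.0496. The number of such genes changed with single libraries. It was 3 without old kidney replicate 2 (C1qa, C4b and Cfi), 3 without old kidney replicate 4, 1 to 5 without one of the 4 young kidneys, and 2 to 4 without young liver replicate 1 or 4 or old liver replicate 2 or 4. With library totals it was 5, and with the replicate number as a block 2 (C4b and C6). C4b kept the difference in all 22 alternatives.

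In fibroblasts 3 classical pathway genes were higher with 3C and C3 was lower. Of 20 genes tested, 3 were called higher with 3C and 1 lower, where 1.23% and 0.632% of 13449 genes were. C1s1 had 56.6, 67.2 and 57.9 CPM with DMSO and 155, 159 and 138 CPM with 3C (log2 fold change 1.27 ± 0.12 SE, edgeR adjusted p = 0.000550). C4b had 10.4, 13.99 and 11.6 CPM with DMSO and 32.5, 37.7 and 28.9 CPM with 3C (log2 fold change 1.41 ± 0.16 SE, edgeR adjusted p = 0.00114), and C2 had 2.72, 3.47 and 3.92 and 5.93, 11.7 and 7.70 CPM (log2 fold change 1.30 ± 0.28 SE, edgeR adjusted p = 0.0290). These 3 genes were higher in every 3C than in any DMSO library, at 2.40-fold, 2.66-fold and 2.46-fold. Of all genes 15.9% were higher with 3C without overlap. C3 fell, from 7.29, 10.2 and 12.2 CPM with DMSO to 4.75, 4.40 and 3.79 CPM with 3C (log2 fold change -1.24 ± 0.22 SE, edgeR adjusted p = 0.0118). Its call was lost without the third DMSO library, its highest, and that of C2 without any 1 of the 3 DMSO libraries or the second 3C library. The calls of C1s1 and C4b were kept in all 12 alternatives. By the adjusted p alone 5 genes were higher and 2 lower, against 2.43% and 1.78% of all genes. C1ra (log2 fold change 0.73 ± 0.14 SE, edgeR adjusted p = 0.0159) and Cfb (log2 fold change 0.95 ± 0.15 SE, edgeR adjusted p = 0.00694) passed the adjusted p below 2-fold in the direction of C1s1, and Cd55 (log2 fold change -0.52 ± 0.12 SE, edgeR adjusted p = 0.0396) in that of C3.

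The C1q subunits were at lower values with 3C without being called. C1qa had 16.7, 14.03 and 14.7 CPM with DMSO and 7.06, 11.1 and 11.4 CPM with 3C (log2 fold change -0.66 ± 0.20 SE, edgeR adjusted p = 0.0978), and C1qb (log2 fold change -0.65 ± 0.22 SE, edgeR adjusted p = 0.129) and C1qc (log2 fold change -0.72 ± 0.23 SE, edgeR adjusted p = 0.101) were alike, each without overlap between the groups. Of all genes 9.93% were lower with 3C without overlap. A list of 10 macrophage markers summed to 324, 249 and 271 CPM with DMSO and 98.8, 124 and 147 CPM with 3C. Lyz2 made up most of that sum and was called lower (log2 fold change -1.35 ± 0.18 SE, edgeR adjusted p = 0.00270), while Clec4f and Timd4 had no reads in either group. The part of such cells in the C1q values was not tested.

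The genes that lead the other roles in fibroblasts were not called. Masp1 had 744, 381 and 652 CPM with DMSO and 543, 210.3 and 369 CPM with 3C, with overlap between the groups (log2 fold change -0.73 ± 0.31 SE, edgeR adjusted p = 0.221). Serping1 had 172, 150.2 and 176 CPM with DMSO and 216, 224 and 274 CPM with 3C, which did not overlap but missed the threshold (log2 fold change 0.47 ± 0.14 SE, edgeR adjusted p = 0.0919). Cfp had 9.49, 8.98 and 5.27 and 9.38, 13.9 and 9.95 CPM, C8g 3.41, 3.55 and 2.51 and 5.93, 5.32 and 4.69 CPM, without overlap but not called, and C5ar1 2.93, 1.63 and 1.29 and 0.771, 1.05 and 1.48 CPM in the same order of treatments. The remaining genes tested (C3ar1, Cd59a, Cr1l, Fcna and Itgam) had log2 fold changes from -0.58 to 0.02.

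**Figure D5:**
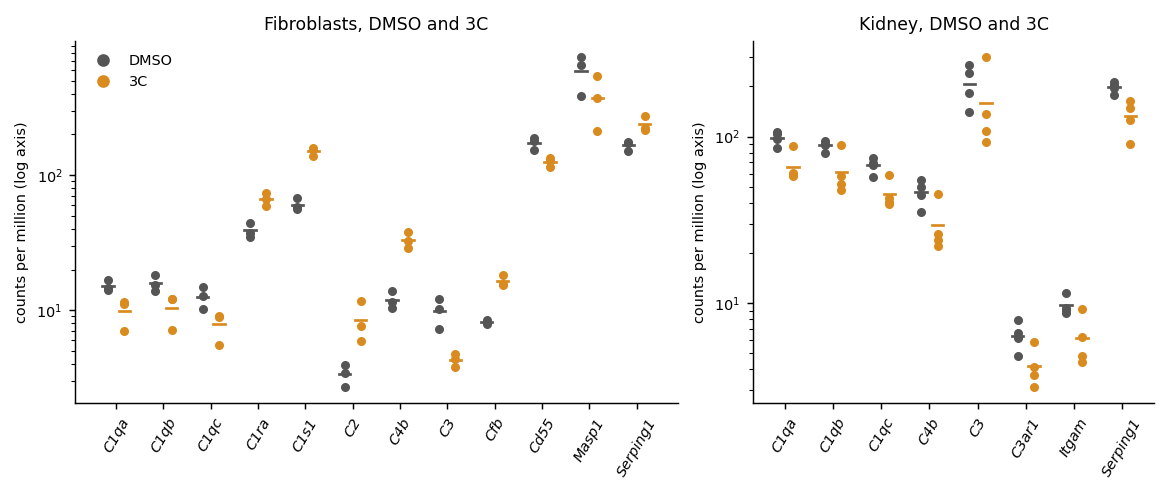
CPM on log axes for complement genes with DMSO (grey) and 3C (orange) in fibroblasts (left, 3 libraries each) and kidney (right, 4 libraries each), with bars at the group means. In fibroblasts C1s1, C2, C4b, C1ra and Cfb are higher with 3C in every library and C3 is lower. In kidney 3 of the 4 libraries with 3C lie below all DMSO libraries for C1qa and C1qb, and 1 lies among them.

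In kidney 3C gave no calls. edgeR called 0 of the 30 genes tested, 0 of all 14974 genes and DESeq2 0 of the members, whereas at an unadjusted p under 0.05 edgeR found 0 members higher and 13 lower, where 4.84% and 7.09% of all genes were. The median log2 fold change was -0.44, against 0.00 over all genes, and 7 of 30 were above 0. C1qa had 85.1, 103, 107 and 97.3 CPM with DMSO and 58.7, 87.7, 57.7 and 60.4 CPM with 3C (log2 fold change -0.54 ± 0.12 SE, edgeR adjusted p = 0.195). C1qb had 80.0, 94.5, 89.3 and 90.4 and 47.5, 88.8, 51.9 and 58.2 CPM (log2 fold change -0.49 ± 0.15 SE, edgeR adjusted p = 0.267), and C1qc had 57.4, 69.8, 74.3 and 67.5 and 39.3, 58.5, 40.5 and 42.7 CPM (log2 fold change -0.54 ± 0.12 SE, edgeR adjusted p = 0.182). The second 3C kidney lay among the DMSO values for all 3 subunits and the others below them. Serping1 had 205, 195, 179 and 212 CPM with DMSO and 90.2, 165, 149 and 126 CPM with 3C, without overlap (log2 fold change -0.55 ± 0.14 SE, edgeR adjusted p = 0.208). Macrophage markers summed to 406, 398, 452 and 435 CPM with DMSO and 230.5, 383, 274 and 309 CPM with 3C, and fibroblast markers to 539, 516, 501 and 662 and 246, 439.7, 353 and 362 CPM. Mbl2, the highest lectin pathway gene per kb in the mean over the 4 kidney groups because of old kidney replicate 2 (Mbl1 was higher in the young, DMSO and 3C groups), had 0.451, 2.48, 1.44 and 0.874 and 1.83, 1.44, 0.850 and 2.23 CPM.

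In liver 3C gave no calls either. edgeR called 0 of 34 members and 0 of all 13042 genes, DESeq2 called 0 members, and at an unadjusted p under 0.05 edgeR found 0 members higher and 1 (C6) lower, where 1.91% and 1.43% of all genes were. The median log2 fold change was -0.04, and 13 of 34 genes were above 0. Vsig4, the leading receptor of the liver, had 57.5, 30.2, 18.7 and 17.5 CPM with DMSO and 16.8, 25.5, 12.6 and 24.6 CPM with 3C, with overlap. For the difference in 3C effect between liver and kidney, 0 of 35 members passed an adjusted p under 0.05 in edgeR and DESeq2. In edgeR 0 of all 15526 genes passed it in either direction. At an unadjusted p under 0.05 edgeR found 3 members (C1s1, Hc and Itgam), and the share of all genes was not counted there. A p that misses the threshold does not show that the values were alike.

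Open chromatin was examined as MACS2 peaks within 1 kb of each annotated start site. In kidney 15 of the 35 genes had such a peak in all 6 libraries and 6 in none, against 53.6% and 31.4% of 24534 genes, and in liver 23 had one in all 6 and 3 in none, against 47.7% and 32%. The number of genes with a peak was 22.7 ± 4.04 in old and 19.3 ± 2.08 in young kidney (mean ± SD, n = 3; exact two-sided permutation p = 0.4), and 29.7 ± 1.15 in old and 28.7 ± 1.15 in young liver (n = 3; exact permutation p = 0.5). The smallest exact p possible with 3 libraries a group is 0.1. C3 was without a peak in the 6 kidneys and had one in each of the 6 livers, with fold enrichments of 2.30, 2.11 and 2.72 in young and 2.83, 2.61 and 2.21 in old. Cfd had none in any of the 12 libraries, and C7 had peaks in kidney only, with fold enrichments of 4.62, 3.17 and 5.36 in young and 3.83, 0 and 2.72 in old kidneys, where 0 stands for no peak.

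Itgam was the only gene with a peak in every old and no young library, in kidney and in liver, a pattern found for 0.171% of genes in kidney and 0.289% in liver. In the 3 old livers 1 peak lay over the start site, with summits 15 bases upstream, 7 bases downstream and 25 bases upstream, next to the promoter letters printed above, and a second lay further downstream. In old kidney the peaks were weak, with −log10 q of 0.386 to 2.23, and not in 1 place, since the summit was 41 bases downstream of the start site in replicate 2, 650 and 1048 bases downstream in replicate 1 and 771 bases downstream in replicate 3. With a window of 500 bases, or peaks of −log10 q of at least 5, no member had this pattern in kidney. The start-site peaks of the old livers had −log10 q of 5.32, 2.42 and 4.396, so at a minimum of 5 Itgam kept a peak in old liver replicate 1 alone and lost the pattern in liver too. At that minimum 1 other member had it in liver and 2 had the reverse, and 14 members in place of 6 were without a peak in kidney, whereas with equal numbers of top peaks per library 2 members had the pattern in kidney. C3ar1 had a peak at its start site in old kidney replicates 2 and 3 (fold enrichment 2.94 and 5.57) and in no young kidney, and in all 6 livers (3.35, 5.54 and 4.94 in young and 4.59, 3.87 and 3.63 in old). C1qa, Cfp and Itgax likewise had a peak in 2 old kidneys and in no young kidney. The share of all genes with that kidney pattern was not counted. C1qb had peaks in all 12 libraries, with fold enrichments of 2.77, 2.11 and 2.52 in young and 2.88, 3.38 and 3.87 in old kidneys, which did not overlap. In liver C1qb had 4.196, 3.48 and 4.42 in young and 3.85, 2.46 and 3.17 in old, which overlapped. Counting no peak as 0, fold enrichments did not overlap between the ages in kidney for 2 genes with old above young (C1qb and Itgam), against 9.45% of genes, and for 3 with young above old (Mbl1, C4bp and Cr1l), against 5.98%. In liver old was above young for 2 (C5ar2 and Itgam), against 4.85%, and young above old for 6 (C1qc, Masp2, Mbl1, Mbl2, C6 and Cd59a), against 3.9%.

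A list of 28 other genes of the system was counted in the same fits. In old kidney 15 were tested and 1 was called higher and 0 lower (0 also at an unadjusted p under 0.05 in edgeR), a share of 6.67% beside the 5.68% of all genes, namely Itgb2, the partner chain of Itgam and Itgax (log2 fold change 2.42 ± 0.32 SE, edgeR adjusted p = 0.00176). In old liver 21 were tested, of which Itgb2 (log2 fold change 1.99 ± 0.31 SE, edgeR adjusted p = 0.0104) and C4a (log2 fold change 1.09 ± 0.23 SE, edgeR adjusted p = 0.0366) were called higher and Susd4 (log2 fold change -2.83 ± 0.60 SE, edgeR adjusted p = 0.0366) lower, beside 1.69% and 0.439% of all genes. With 3C in fibroblasts 13 were tested and clusterin (Clu), which binds terminal complexes, was called higher (log2 fold change 2.32 ± 0.21 SE, edgeR adjusted p = 0.000550), beside 1.23% of all genes.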

How the data were processed

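Gene counts, 1 deposited table per RNA-seq library, were made by the authors with HISAT2 2.2.1 on mm10 and HTSeq 0.12.4 without regard to strand, so reads of overlapping or antisense genes cannot be told apart. Some reads of genes with a similar copy (C4b and C4a, C1ra and C1rb, C1s1 and C1s2, Cd59a and Cd59b) may have been split or dropped, which was not measured. ATAC-seq peaks were called by the authors with MACS2 per library, and the deposited peak files give a signal as fold enrichment (a ratio over background) and −log10 p and q values. Tallies of reads assigned to no gene (5.99% to 19.5% of a library) were left out. The DMSO and 3C libraries carried 0 in the tally of multimapped reads and the untreated ones did not, so the 2 sets were not tested against each other.

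Counts were tested with edgeR 4.0.16 (R 4.3.3; filterByExpr with a minimum count of 10, TMM, quasi-likelihood F test) in a separate fit for each comparison over all genes, with Benjamini-Hochberg adjustment. Calls needed an adjusted p under 0.05 together with a fold above 2 or below 0.5. Interactions were tested in a joint fit of 4 groups, with the adjusted p alone. Levels are counts scaled to the gene total (CPM), also divided by exon length in kb to compare genes. Total counts were 14238228 to 43704147 per library, and intervals and floors cover counting error only. Peaks were assigned to a gene where they lay within 1000 bases of its annotated start site. Promoter sequences, 250 bases before the start site, were taken from RefSeq (GRCm38.p6). The fits were tested on simulated data.

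Alternatives were DESeq2 1.42.0, RLE factors, library totals, no filter, a mean of at least 1 CPM, the adjusted p alone, the replicate number as a block, each library left out, and other peak thresholds and windows. Numbers were taken as pairs where every same-numbered pair of libraries deviated together with r over 0.1, which of 7 comparisons held for young liver against young kidney alone (r of 0.12, 0.22, 0.10 and 0.45 for numbers 1 to 4). Young liver replicate 2 correlated more with a young kidney of another number, so this pairing is uncertain. The genes and lists were chosen with earlier results of these data known. Values per library are given for members called with age or 3C and for the most abundant member of each role in each tissue.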

Additional observations from a re-analysis of the deposited data

Results flagged for a closer look

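For 9 members the test of the difference between tissues showed a lower age effect in liver than in kidney, with differences of log2 fold changes of -3.20 for C6, -2.66 for C4b, -2.21 for Fcna, -2.004 for Cfi, -1.85 for C1qa, -1.77 for C1qb, -1.57 for C1qc, -1.31 for C1ra and -1.30 for Cfp. Of all genes 0.845% were lower. Only C4b kept the difference in all 22 alternatives. In 277 groups of 4 libraries, each tested for a library far from the others, 25 passed Dixon's 95% critical value, where chance gives about 5%. Of these, 19 had a group mean of at least 1 CPM, 4 of them in old kidney replicate 2 (Hc at 26.3, Mbl2 at 20.6, C4bp at 12.4 and C9 at 7.40 CPM).

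Among young kidneys the libraries far from the others were replicate 4 for C1qb (26.6 CPM) and C2 (68.5 CPM), replicate 3 for C4b (10.1 CPM), replicate 2 for Mbl1 (3.88 CPM) and replicate 1 for Cr1l (62.6 CPM). In old liver they were replicate 1 for Masp1 (44.4 CPM), Mbl2 (1292 CPM) and C5ar1 (1.57 CPM) and replicate 3 for Cd59a (58.0 CPM). In the treated mice they were the second 3C kidney for C1qa (87.7 CPM), the fourth 3C kidney for Cd55 (3.66 CPM), the second DMSO kidney for C8a (67.3 CPM), the first DMSO liver for Fcna (83.9 CPM) and the second 3C liver for Mbl2 (535 CPM) and Cd59a (59.8 CPM).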

How the results depend on the processing

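No member called in a comparison changed direction in it under any alternative run. In kidney the number of members called higher with age was 14 to 18 when a library was left out, and the number lower was 0 to 1 (Cfd, without old kidney replicate 3). In liver DESeq2 gave 5 higher and 1 lower, and leaving out a library gave 0 to 6 higher and 0 to 1 lower. With the adjusted p alone 5 members were higher and 2 lower with 3C in fibroblasts, and leaving out a library gave 0 to 1 lower. For DMSO liver against DMSO kidney the lower calls were 2 to 5 with a library left out. Members whose age effect was lower in liver than in kidney were 15 in DESeq2, 5 with library totals and 1 to 11 with a library left out. At −log10 q of at least 5 the old minus young difference in liver windows with a peak was -2.67, opposite in sign to the 1 without that threshold, and 6 windows had a peak in every liver library. With TMM factors over all RNA libraries 4 members were highest in kidney. The cause of these changes was not tested.

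The numbers were taken as pairs for the young tissues alone among the 7 comparisons checked. With the replicate number as a block, 14 members were called higher and 1 lower (Cfd) with age in kidney. In liver 1 was called higher (Itgam) and 1 lower (C8b) with age, and for 2 (C4b and C6) the age effect differed between tissues. The block changed no other number of members called.

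Depth limits Hc, C8b, C9, C4bp, Masp2 and Vsig4 in kidney, which had too few reads to be tested with age. There 3 counts over the young kidneys are 0.0415 CPM. Groups of 3 or 4 libraries limit the rest.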
